A study of Mus musculus with 2 samples.

Results

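Stretches of the genome where open sites lie close together were studied in RAW264, a cell line of mouse macrophage type. Its cells become osteoclasts, which resorb bone, after exposure to the cytokine RANKL. These dense open domains were selected on the peaks of untreated cells: a bin of 100 kb was dense when at least 5 RANKL- peaks started in it, and dense bins next to each other were joined. The rule gave 251 domains made of 301 bins, out of 7095 bins with at least 1 RANKL- peak on chromosomes 1 to 19 and X. They held 1649 of the 13479 RANKL- peaks on these chromosomes (12.2%) and 1532 of the 16364 RANKL+ peaks (9.36%).

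Each condition had 1 DNase-seq library of RAW264 cells at passage 3 to 7. The RANKL- cells had no RANKL, and the RANKL+ cells had GST-RANKL at 234 ng/ml for 24 hours. Fragments of 100 to 500 bp were sequenced from nuclei cut by DNase I, and the deposited lists held 13492 RANKL- and 16447 RANKL+ peaks over all chromosomes. With 1 library per condition no value has a replicate error, and differences describe these libraries only. Percentages carry 95% Wilson intervals and ratios of counts exact Poisson intervals, which cover counting error and treat neighbouring peaks as independent. Read depth is unknown, so a peak missing from a list does not show a closed site. Positions are 1-based on mm9. No mm9 annotation or genome was used here, so domains are named by position, and neither genes nor sequences were assigned to them. For the same reason the cell type was not checked against marker genes.

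DNase I cuts where nucleosomes are displaced, which happens mainly at promoters, enhancers and other sites held open by bound factors. In mammals such sites are unevenly spread: stretches with many genes carry many promoters, and genes that define a cell type are often flanked by groups of enhancers. In macrophages much of the enhancer set is laid down by lineage factors such as PU.1, and signals such as RANKL then act through NF-kappaB, AP-1 and NFATc1.

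Most domains were single bins. Of the 251 domains, 215 had 1 bin, 27 had 2 bins, 6 had 3 bins, 2 had 4 bins and 1 had 6 bins. A domain held a median of 5 RANKL- peaks (quartiles 5 and 6), and 37 domains held 10 or more. Neighbouring peaks of a domain were separated by a median gap of 12071.5 bp (quartiles 6374 and 20397.5 bp). Broad RANKL- peaks covered 11.1% of the length of dense bins, against 3.24% of the other bins that held such a peak. The rule itself fixes these densities. Its threshold lay in a smooth decline, with 435 bins at 4 peaks just outside it, 199 at 5 peaks just inside, 70 at 6, 25 at 7, 5 at 8, 1 at 9 and 1 at 10.

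Domain peaks resembled other RANKL- peaks in score, the authors' own value for each peak, and were slightly wider. Their median score was 103.0 (quartiles 70.5 and 155), against 101 (70.0 and 153) in other bins. The highest 10% of the list by score made up 10.8% of the domain peaks (interval 9.39 to 12.4%) and 9.89% of the others (9.37 to 10.4%). Median widths were 1846 bp in domains and 1724 bp elsewhere.

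The RANKL+ list, which the rule did not use, was dense in the same bins. Bins with 1 RANKL- peak held a mean of 1.19 RANKL+ peaks. The mean was 2.05 for bins with 2 peaks, 2.86 with 3, 3.80 with 4, 4.45 with 5, 5.83 with 6 and 6.20 with 7. RANKL+ peaks were absent from 28.4% of bins with 1 RANKL- peak, from 12.2% with 2 and from 1.84% with 4. Of the 301 dense bins, 1 held no RANKL+ peak.

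**Figure D1:**
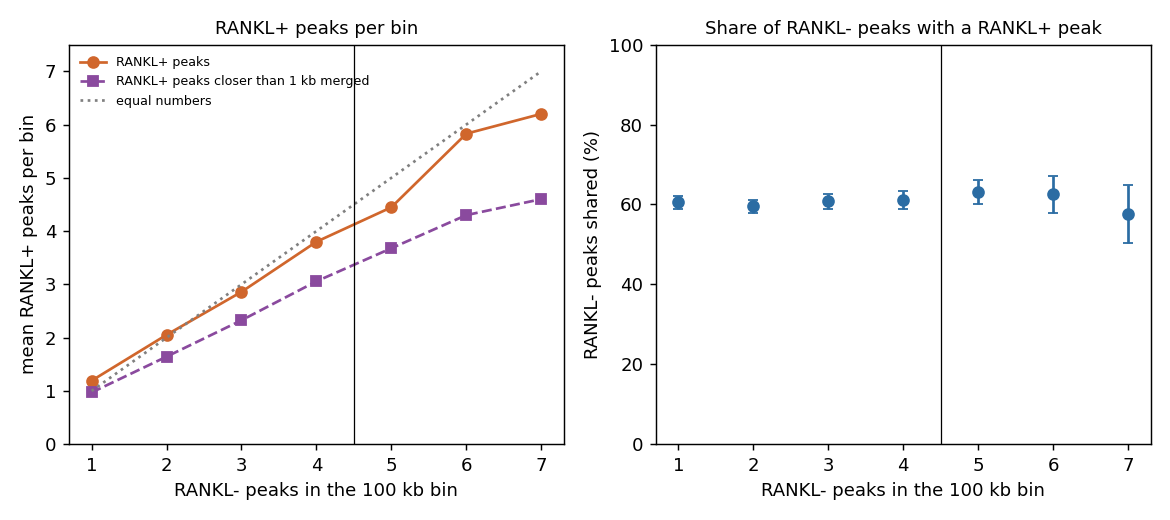
Left: mean number of RANKL+ peaks per 100 kb bin (y axis) by the number of RANKL- peaks in the bin (x axis), as deposited (circles) and with RANKL+ peaks closer than 1 kb merged (squares), with a dotted line for equal numbers. Right: percent of RANKL- peaks that overlap a RANKL+ peak, with 95% Wilson intervals; the vertical line marks the start of the dense bins. RANKL+ peaks per bin go from 1.19 to 6.20 along the x axis, while the percent shared lies between 57.7% and 63.1%.

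Per dense bin there were 5.48 RANKL- and 5.09 RANKL+ peaks. In bins more than 10 bins away from any dense bin, on chromosomes with domains, there were 0.375 and 0.486. The RANKL+ density was thus 10.5-fold higher in domains than far from them, or 9.78-fold with RANKL+ peaks closer than 1 kb merged. Bins directly beside a dense bin held 1.95 RANKL- and 2.13 RANKL+ peaks, and those at 5 bins held 0.928 and 1.07. At 10 bins the densities were 0.664 and 0.802, both still above the far bins. The rule fixes the fall of RANKL- peaks at the domain edge, since every bin outside holds fewer than 5 of them. Bins near domains still held more peaks of both lists than far bins, so domains sat inside wider stretches rich in sites.

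**Figure D2:**
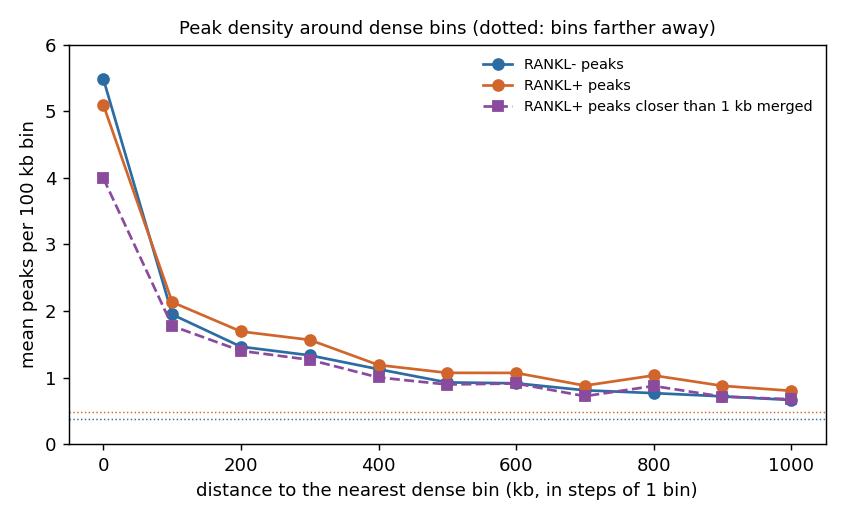
Mean number of peaks per 100 kb bin (y axis) by distance to the nearest dense bin in kb (x axis; 0 is the dense bins) for RANKL- peaks (blue), RANKL+ peaks (orange) and RANKL+ peaks closer than 1 kb merged (purple). Dotted lines give bins more than 10 bins away; both lists fall steeply in the first bin outside the domains, to 1.95 and 2.13, and then slowly.

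Peaks of the lists differed in shape: in domains the median width was 1846 bp for RANKL- and 315.5 bp for RANKL+ peaks. RANKL- peaks covered 11.1% of the length of dense bins and RANKL+ peaks 1.88%. Numbers and shares of the lists therefore do not compare like sites. The ratio of RANKL+ to RANKL- peaks was 0.929 in domains (interval 0.866 to 0.997) and 1.25 in all other bins (1.22 to 1.28). Among the other bins that held a RANKL- peak it was 1.05 (1.02 to 1.07). With peaks closer than 1 kb merged in both lists, the same bins held 1201 RANKL+ and 1623 RANKL- regions, a ratio of 0.740 (0.686 to 0.798), against 1.05 (1.02 to 1.08) in other bins. Bins were taken because their RANKL- number was high, and that lowers such a ratio by itself. With a minimum of 6 peaks per bin the domain ratio was 0.989 (0.886 to 1.10), from 647 RANKL+ and 654 RANKL- peaks. These peaks include 1 bin on chromosome 8 with 38 RANKL+ and 10 RANKL- peaks, and 1 on chromosome 9 with 40 and 6. Without these bins the ratio was 0.890 (0.829 to 0.956) under the main rule, and it was not computed for the higher minimum. The ratio was above 1, at 1.56 (1.28 to 1.91), for domains rebuilt from the upper 50% of the RANKL- list by score. There all RANKL+ peaks were set against that reduced list. Fewer RANKL+ than RANKL- peaks were found in 144 domains, equal numbers in 47 and more in 60. With RANKL+ peaks closer than 1 kb merged, 19 domains held more RANKL+ regions than RANKL- peaks.

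The same rule applied to the RANKL+ list marked 555 dense bins, of which 158 were dense in both lists. These are 52.5% of the RANKL- dense bins and 28.5% of the RANKL+ dense bins. Among all bins with a RANKL- peak, 7.68% held 5 or more RANKL+ peaks. After merging RANKL+ peaks closer than 1 kb there were 226 such bins and 100 were dense in both, 33.2% of the RANKL- and 44.2% of the RANKL+ dense bins, with a background of 3.11%. Nearly all RANKL+ dense bins held RANKL- peaks too: 10 of the 555 held none, and 432 held at least 3.

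The next comparison asked whether a site in a crowded domain was found again after RANKL more often than a site elsewhere. Shared peaks are those that meet a peak of the opposite list over 1 bp or more. Of the 1649 domain peaks, 1031 were shared (62.5%, interval 60.2 to 64.8%), near the background of 60.6% for all RANKL- peaks. In other bins 7143 of 11830 were shared (60.4%, 59.5 to 61.3%). The difference was 2.14 percentage points with an interval from -0.378 to 4.61, which includes 0. It was 1.49 points after weighting the other peaks to the scores of the domain peaks, and it changed sign, to -1.51 points, after weighting them to the widths. Across bins with 1 to 7 RANKL- peaks the share stayed between 57.7% and 63.1%. With an overlap of 50% of both peaks, which left 0.728% of domain peaks shared, the difference was 0.432 points (interval 0.100 to 0.978). At the 1 bp rule no difference in sharing between domains and other bins was detectable. Among domains the share was higher in those of 2 or more bins (66.5%) than in single bins (60.9%), a difference that was not tested.

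Score separated shared from unshared sites in domains as it did elsewhere. With the list cut into 5 equal parts by score, in the lowest part 31.7% of domain peaks were shared (interval 26.8 to 37.1%), against 27.7% of other peaks (25.9 to 29.5%). In the middle part the shares were 61.0% (55.8 to 65.9%) and 59.4% (57.4 to 61.4%). In the highest part they were 96.1% (93.5 to 97.7%) and 95.9% (95.1 to 96.7%). The intervals of domain and other peaks overlapped in all 5 parts.

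**Figure D3:**
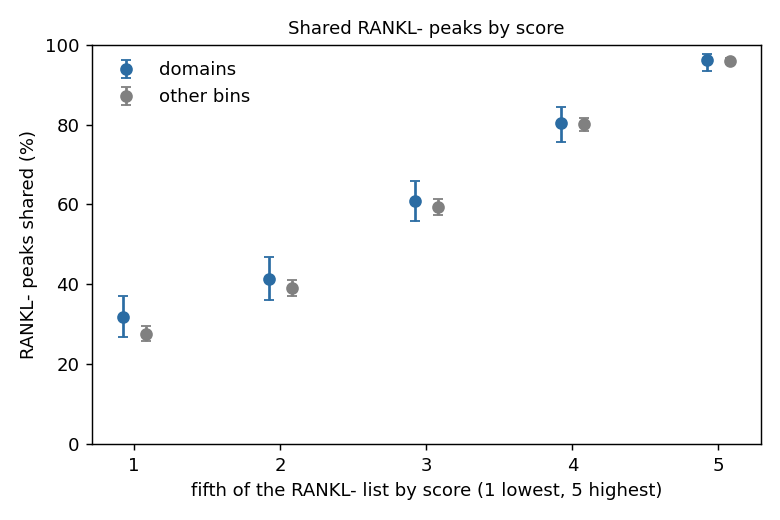
Percent of RANKL- peaks that overlap a RANKL+ peak (y axis, with 95% Wilson intervals) in 5 equal parts of the RANKL- list by score (x axis), for peaks in domains (blue) and in other bins (grey). Both sets go up from the lowest part (31.7% and 27.7%) to 96.1% and 95.9% in the highest, with overlapping intervals.

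Within a domain the strongest site was usually shared and the weakest usually was not. The highest-scoring RANKL- peak was shared in 223 of 251 domains (88.8%, interval 84.3 to 92.2%). The second-highest was shared in 196 (78.1%, 72.6 to 82.8%) and the lowest in 88 (35.1%, 29.4 to 41.1%). In other bins with 2 to 4 RANKL- peaks the highest-scoring peak was shared in 78.5% (2520 of 3210). Median scores in domains were 211 for the highest peak and 58.1 for the lowest. These shares were not compared at equal score, so they are not shown to be particular to domains. In 142 of the 250 domains with RANKL+ peaks (56.8%, 50.6 to 62.8%), the highest-scoring RANKL+ peak lay on the highest-scoring RANKL- peak. The place of a peak in the domain made no detectable difference: 62.7% of first and last peaks were shared (58.4 to 66.9%) and 62.4% of inner peaks (59.6 to 65.2%). Neighbours were in the same state, both shared or both unshared, in 55.7% of 1398 neighbouring pairs in domains (53.1 to 58.3%) and in 53.8% of 5036 pairs in other bins (52.4 to 55.2%). In domains 64.6% of peaks beside a shared neighbour were shared, and 59.0% of those beside an unshared one. In other bins these values were 61.7% and 58.2%. Shared and unshared sites were thus mixed within domains, with a small tendency for neighbours to be alike that was not tested.

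Seen from the RANKL+ side, 1337 of 1532 peaks in the domains were shared (87.3%, interval 85.5 to 88.8%), against a background of 65.9% of all RANKL+ peaks. The share was 63.7% in all other bins (62.9 to 64.5%) and 76.0% in other bins with a RANKL- peak (75.2 to 76.7%). This share moves with the number of RANKL- peaks that the rule fixed: it was 68.4% in bins with 1 RANKL- peak, 83.7% with 4 and 88.2% with 5. RANKL+ peaks in domains had a median score of 89.3 and a median width of 315.5 bp, against 72.4 and 225 bp in all other bins. These other bins include bins without a RANKL- peak. Scores and widths were not compared at equal RANKL- peak number or among shared peaks alone. Of the shared RANKL- peaks in domains, 24.9% held 2 or more RANKL+ peaks (22.4 to 27.7%), against 27.9% elsewhere (26.9 to 28.9%).

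Domains also held sites found only after RANKL. Of the 1532 RANKL+ peaks in domains 195 were RANKL+-only, spread over 111 domains. Beside them were 618 unshared peaks among the 1649 RANKL- peaks. RANKL+-only peaks were a smaller part of the RANKL+ peaks in domains than elsewhere. In domains 87.3% of RANKL+ peaks were shared, against 76.0% in other bins with a RANKL- peak and 65.9% of all. Per bin, where domains hold more RANKL+ peaks of any kind, there were 0.648 RANKL+-only peaks in domains. There were 0.439 in other bins with a RANKL- peak and 0.190 in bins far from domains. Of the 195, 33 lay in 1 bin each of chromosomes 8 and 9, described below, and without these bins the density was 0.542. Both kinds of unshared site occurred together in 98 domains, and 13 domains had neither.

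The percent of RANKL- peaks shared ranged from 0 to 100% among domains, with a median of 60% (quartiles 42.3 and 80%). All RANKL- peaks were shared in 26 domains and none in 3. Since the median domain has 5 peaks, each peak moves its share by a large step. Domains of 2 or more bins had 66.5% of 475 peaks shared (interval 62.2 to 70.6%), and single bins 60.9% of 1174 (58.1 to 63.7%).

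The fullest domain lay on chromosome 10 between 79.3 and 79.9 Mb and spanned 6 bins. It held 32 RANKL- peaks from 79315613 to 79897709, of which 19 were shared, and 32 RANKL+ peaks, of which 7 were RANKL+-only. Its strongest RANKL- peak, at 79370611 to 79372901, had a score of 450 and carried the strongest RANKL+ peak, at 79371056 to 79371790 (score 422). The next, at 79895908 to 79897709 (score 412), carried the RANKL+ peak at 79896402 to 79897072 (score 407). Shared RANKL- peaks had scores from 73.6 to 450. The 13 unshared peaks had scores from 53.9 to 160, a range that overlaps that of the shared ones, and lay along the whole domain. The strongest of them was at 79339275 to 79341532. Among the RANKL+-only peaks the strongest lay at 79635577 to 79636010 (score 167).

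**Figure D4:**
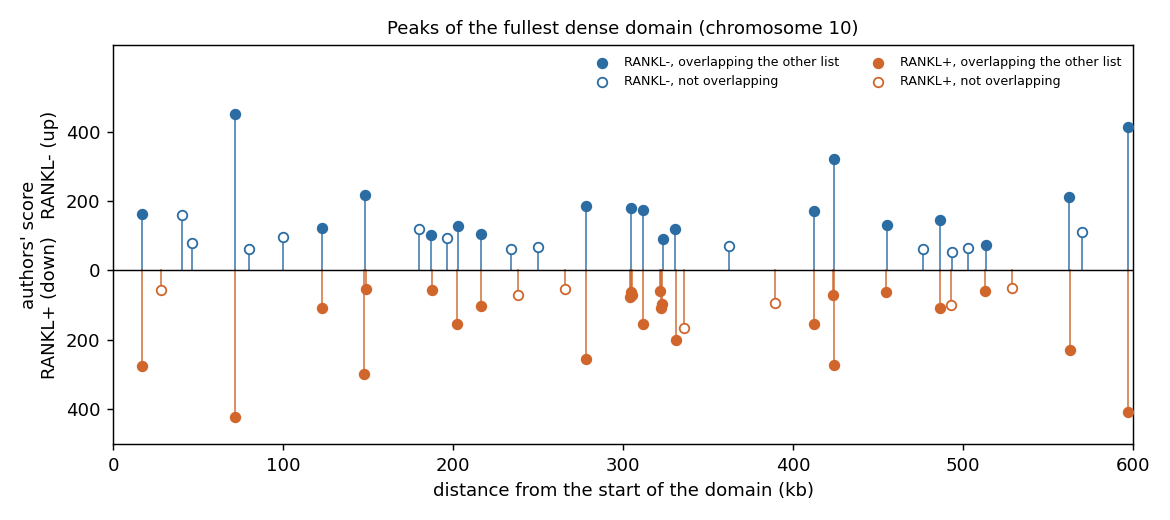
Peaks of the fullest domain, on chromosome 10, by distance of the peak centre from the domain's start in kb (x axis) and authors' score (y axis), with RANKL- peaks upward (blue) and RANKL+ peaks downward (orange). Filled points overlap the other list and open points do not; scores rank peaks within a list only. The open points upward have scores of 53.9 to 160, while the strongest peaks of both lists are filled and stand at the same places.

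This domain was the first of 3 full ones close together. After 1 bin below the threshold came the domain from 80.0 to 80.3 Mb, with 16 RANKL- peaks (14 shared) and 24 RANKL+ peaks, and it had the highest median RANKL- score of the 15 fullest domains (185). Its strongest peak, at 80084043 to 80085608 (score 500), carried a RANKL+ peak at 80084716 to 80085513 (score 578). The domain from 80.6 to 80.9 Mb held 17 RANKL- peaks (13 shared) and 18 RANKL+ peaks. Together these 3 domains had 65 RANKL- and 74 RANKL+ peaks, and 70.8% of the RANKL- peaks were shared (interval 58.8 to 80.4%). That interval includes the background of 60.6% for all RANKL- peaks.

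Chromosome 19 held 3 of the 15 fullest domains. The one from 8.8 to 9.1 Mb had 22 RANKL- peaks (15 shared) and 20 RANKL+ peaks, none of them RANKL+-only. Its strongest peak, at 8892713 to 8895543 (score 388), held 2 RANKL+ peaks, the stronger of them with a score of 585. The domain from 3.9 to 4.3 Mb also had 22 RANKL- peaks, but 12 were shared and 15 RANKL+ peaks were found. The one from 5.9 to 6.1 Mb had 12 in each list, with 8 RANKL- peaks shared.

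In the other domains with 16 or more RANKL- peaks, most were shared. On chromosome 7 from 52.1 to 52.5 Mb there were 21 RANKL- peaks (15 shared) and 20 RANKL+ peaks, with the highest-scoring RANKL- peak of the 15 at 52103224 to 52106566 (score 550). An unshared peak in this domain was strong too, at 52240772 to 52243457 (score 229). Chromosome 8 from 73.1 to 73.4 Mb had 19 RANKL- peaks (14 shared) and 18 RANKL+ peaks. Chromosome 9 from 44.1 to 44.4 Mb had 17 in each list (13 RANKL- peaks shared). On chromosome 3 from 94.8 to 95.1 Mb, 15 of 17 RANKL- peaks were shared and 22 RANKL+ peaks were found.

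The other domains among the 15 fullest had lower shares. On chromosome 12 from 113.8 to 114.0 Mb, 5 of 14 RANKL- peaks were shared and there were 6 RANKL+ peaks. Here even the strongest RANKL- peak, at 113997897 to 114001126 (score 177), had no RANKL+ peak. Chromosome 9 from 20.8 to 21.0 Mb had 5 of 12 shared, and again the strongest peak, at 20818829 to 20821188 (score 179), was unshared. Chromosome 11 from 120.3 to 120.5 Mb had 6 of 12 shared, chromosome 4 from 132.0 to 132.2 Mb had 7 of 13, and chromosome 17 from 35.9 to 36.1 Mb had 7 of 12. In the last, the peak at 35957356 to 35960757 (score 195) was unshared.

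Over the 15 fullest domains, 168 of 258 RANKL- peaks (65.1%, interval 59.1 to 70.7%) and 215 of 243 RANKL+ peaks (88.5%, 83.9 to 91.9%) were shared. The background was 60.6% of all RANKL- peaks, which the first interval includes, and 65.9% of all RANKL+ peaks. The RANKL+ share moves with the number of RANKL- peaks, by which these domains were chosen. The domain at rank 15 had 12 RANKL- peaks, and the one at rank 16 had 11.

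**Figure D5:**
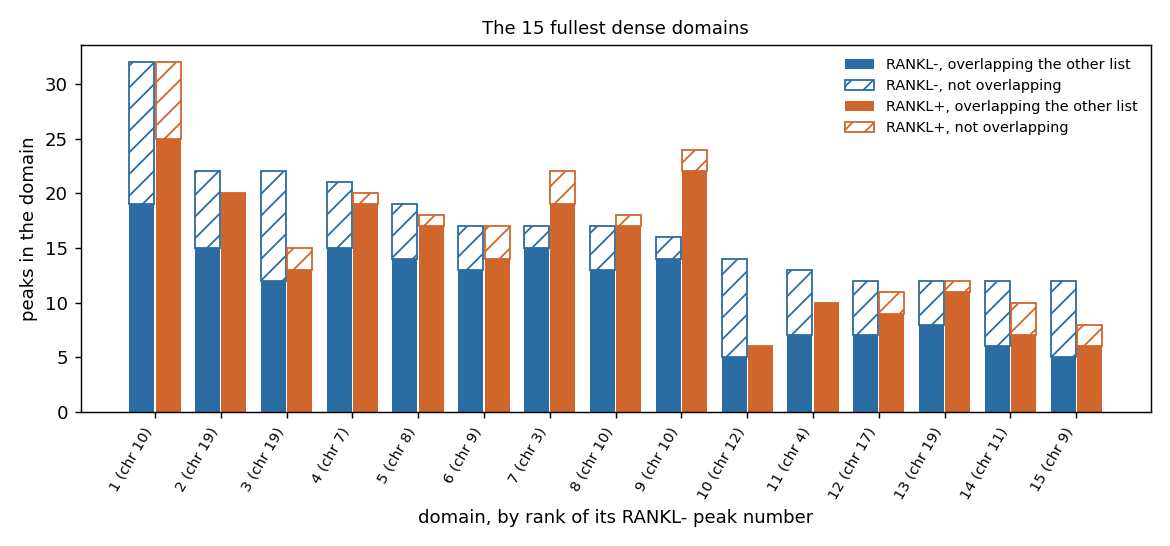
Number of peaks (y axis) in the 15 domains with the most RANKL- peaks (x axis, by rank with their chromosome), for the RANKL- list (blue) and the RANKL+ list (orange). Filled parts overlap the other list and hatched parts do not; the hatched RANKL- part goes from 2 of 17 peaks on chromosome 3 and 2 of 16 on chromosome 10 to 9 of 14 on chromosome 12.

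Among the 37 domains with at least 10 RANKL- peaks, the median share was 70% (quartiles 54.5 and 76.5%). Besides the chromosome 3 domain above, the highest shares were at chromosome 18 from 36.8 to 37.0 Mb (10 of 10), chromosome 7 from 134.0 to 134.2 Mb (10 of 11), chromosome 8 from 19.9 to 20.0 Mb (9 of 10) and chromosome 15 from 76.4 to 76.6 Mb (9 of 10). The lowest, besides the chromosome 12 domain and that of chromosome 9 at 20.8 Mb, were at chromosome 15 from 76.0 to 76.2 Mb (4 of 10), chromosome 11 from 101.0 to 101.2 Mb (4 of 10) and chromosome 4 from 129.2 to 129.4 Mb (5 of 11). Of the domains with high shares, that on chromosome 8 held 38 RANKL+ peaks, of which 16 were shared. High and low domains could lie near each other, as on chromosome 15. In its domain with the lower share, the strongest peak, at 76180375 to 76183072 (score 452), was shared, and 4 of its 9 RANKL+ peaks were RANKL+-only.

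In 3 single-bin domains no RANKL- peak was shared, and they are named here after their values were seen. On chromosome 6 from 70.7 to 70.8 Mb, 6 RANKL- peaks lay between 70740685 and 70795549, with scores up to 138, beside 1 RANKL+ peak that touched none of them. On chromosome 15 from 59.6 to 59.7 Mb there were 5 RANKL- peaks (highest score 112) and 1 RANKL+ peak (score 51.0). On chromosome 11 from 116.4 to 116.5 Mb there were 5 RANKL- peaks (highest score 122) and no RANKL+ peak. In each of the other 250 domains there was at least 1 RANKL+ peak.

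At the other end, 2 single-bin domains had many narrow RANKL+ peaks, and these too were picked for their values. The bin at 3.0 Mb of chromosome 9 held 6 RANKL- and 40 RANKL+ peaks, with median scores of 1251 and 1930, against 103.0 and 89.3 over all domain peaks. The bin at 19.9 Mb of chromosome 8, the single bin with 10 RANKL- peaks, held 38 RANKL+ peaks, which merging at 1 kb reduced to 21. Whether repeated sequence gathered reads there was not tested. Without both bins the ratio of RANKL+ to RANKL- peaks in domains was 0.890 (interval 0.829 to 0.956), and 88.9% of the RANKL+ peaks were shared (87.1 to 90.4%). Another bin rich in RANKL+ peaks, on chromosome 3 from 96.0 to 96.1 Mb, held 8 RANKL- peaks, all of them shared. They covered 26.6% of the bin, the highest share of any domain, and 21 RANKL+ peaks lay there. Its strongest RANKL- peak, at 96000166 to 96002783 (score 353), carried a RANKL+ peak with a score of 352.

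Of the 12 domains on chromosome 3, 10 lay between 55 and 130 Mb. This segment was picked after the data were seen, for its many RANKL+ peaks. Its 10 domains held 73 RANKL- and 106 RANKL+ peaks, a ratio of 1.45 (interval 1.07 to 1.98). Of the 73 RANKL- peaks, 62 were shared (84.9%, 75.0 to 91.4%). Picking the segment this way raises the ratio by itself and may raise the share, and the intervals do not cover that choice. No such values are given here for the segment's peaks outside domains, so these are not shown to be particular to its domains. Without the segment, the domain share was 61.5% (59.1 to 63.9%).

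Domains were unevenly spread over the chromosomes. Chromosome 11 had the most (33 domains), followed by chromosome 7 (21) and chromosome 8 (19). Chromosome 18 had 4, and chromosome X had 0 among 113 RANKL- peaks. As a share of a chromosome's RANKL- peaks, domains took most on chromosome 19 (24.9%), then on chromosomes 8 (18.3%), 15 (17.7%) and 10 (17.2%), and least on the autosomes on chromosome 6 (4.99%). Across the 20 chromosomes this share went with protein-coding genes per Mb, counted from the RefSeq table of GRCm38 (Pearson r 0.65, Spearman rho 0.62), and with RANKL- peaks per Mb (r 0.78, rho 0.73). Without the 2 chromosomes farthest from the median the r values were 0.65 and 0.78. These are descriptions of 20 chromosomes that share 1 library, and peak density, which the rule uses, is in both measures of the second pair.

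Along a chromosome some domains lay close together. The median distance between neighbouring domains was 1.6 Mb (quartiles 0.5 and 8.8 Mb, highest 72.7 Mb). In 61 cases the next domain began within 5 bins, and in 21 of these a single bin, below the threshold, lay between them. The spacing of randomly placed domains was not computed, so grouping was not tested.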

How the data were processed

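DNase-seq peaks of RAW264 cells were analysed from 1 deposited list per condition, which holds peak positions and scores. The submitters' processing notes name Bowtie2 2.0.0, MACS2 and build mm9. The threshold, any control library and what the score measures were not given in the sources used here. Scores, as the authors deposited them, were used to rank peaks within a list only. Peaks were called per library, and depth is unknown. On chromosome 1, 12 RANKL- peaks end beyond every gene listed for GRCm38, so the GRCm38 table gave chromosome-wide gene numbers only.

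Bins came from the peak start in 100 kb steps, and peaks on chromosomes M and Y were left out. Overlap (1 bp) was computed in Python 3.11.15 (numpy 2.4.6, pandas 2.3.3, scipy 1.17.1, matplotlib 3.10.9) and checked against bedtools 2.31.1. Differences of shares carry Newcombe intervals. Domain finding and overlap were tested on simulated data with near misses. The rule named the 15 fullest domains and, with at least 10 peaks, the 5 highest and 5 lowest by percent shared. Members and lists were chosen with earlier results of these data known. Gene, gene list, promoter and motif results were not computed, as no mm9 annotation or sequence was used. Alternatives covered the peak minimum, bin placement, overlap rules, score, merging and weighting, and 2 added after the data were seen. The libraries have no replicates, so no p-value was computed.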

Additional observations from a re-analysis of the deposited data

Results flagged for a closer look

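Chromosome Y lay outside the domain rule. It held 78 RANKL+ peaks against 12 RANKL- peaks, more than in the untreated library. By the same bin rule it would have had 5 dense bins in the RANKL+ list, with up to 29 peaks in a bin, and 0 in the RANKL- list, where no bin held more than 3.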

How the results depend on the processing

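Of 71 values from alternatives, 24 moved by over 1.5 times (counts) or left the interval given in the report (shares, ratios and differences), and 47 did not. A minimum of 4 peaks gave 567 domains with 3389 RANKL- and 3185 RANKL+ peaks (85.4% of the latter shared), and a minimum of 6 gave 93 domains with 654 and 647. The upper 50% of the RANKL- list by score gave 32 domains with 169 and 264 peaks, a ratio of 1.56, and shares of 85.2% (RANKL-) and 82.2% (RANKL+); fewer peaks were binned by construction. Merging peaks closer than 1 kb before binning gave a ratio of 0.732. An overlap of 50% of both peaks gave 0.728% and 0.783% shared and differences of 0.432 (RANKL-) and 0.547 points (RANKL+), since narrow peaks cannot fill broad ones. Windows of 500 bp gave 56.5% and 70.7% (difference 15.4 points), and equal peak numbers 58.9% of RANKL- peaks (RANKL+ difference 17.5 points). Weighting by width gave a RANKL- difference of -1.51 points. Without 1 bin each on chromosomes 8 and 9, 88.9% of RANKL+ peaks were shared. The cause of the other shifts was not tested. Bin edges shifted by 50 kb, or bins from peak centres, moved no value. Gene start and gene list alternatives were not run. No paired analysis was possible because each condition has 1 library, and no replicate could be left out.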
